A study of Homo sapiens with 30 samples.

Results

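The collagen genes are the 44 protein-coding genes of the deposited count table whose symbols have the form COL, a number, A and a number, for example COL1A1. They are 44 of the 60675 genes in the table. Membership was set by symbol alone, but the family was chosen with earlier results of these data known. Of these 44, 11 encode fibrillar chains, 9 encode chains of basement membranes and the zone beneath them, and 24 encode chains of other types.

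Collagens are secreted proteins in which polypeptide chains wind into a triple helix. Fibrillar chains (types I, II, III, V, XI, XXIV and XXVII) assemble into the load-bearing fibrils of connective tissue, type IV chains build the sheet-like network of basement membranes, and the remaining types decorate fibrils, form beaded filaments or short-chain networks, or span the cell membrane. Healthy brain tissue holds collagen mainly around blood vessels and in the meninges, while glioma cells in culture often carry collagen transcripts.

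SW1783 is an established human astrocytoma cell line. Its transcripts were sequenced 24 h after exposure to a herbal extract or to DMSO vehicle (0.1% in the sample labels and 2% in the design text). Water extracts of the formulas Palmul-tang and Sibjeondaebo-tang were given at 20, 100 and 500 µg/mL, with 3 libraries at each dose, and there were 3 vehicle libraries. A water extract of the formula Samul-tang and ethanol extracts of Poria Cocos (a fungus) and Atractylodis Rhizoma (a rhizome) were given at the same doses, with 1 library at each, so that 30 libraries in 16 groups were used. Doses are masses of whole extract, and the labels do not give the DMSO content of the treated cultures.

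Totals ran from 22.57 M to 37.82 M estimated read counts per library, and levels are given as CPM, counts scaled to a common library total, after normalisation by the trimmed mean of M values (TMM). Whether replicate libraries trace back to independent cultures is not labelled; p-values here measure the spread between these libraries, which may be technical. Vehicle sample codes begin with C1 and treated codes with 7, 8 or 9, so treatment and code set cannot be told apart in any comparison with vehicle; comparisons between doses lie within 1 code set. The third Sibjeondaebo-tang library at 500 µg/mL stood apart from replicates 1 and 2 of its group, with chi-square statistics per gene of 8.14 and 7.42 against 2.64 between replicates 1 and 2 and 2.14 to 6.68 between libraries of the other replicated groups, and values that it moves are also given without it. In bulk samples, fewer cells of a type and less RNA per cell cannot be told apart.

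Of the 44 collagen genes, 26 were expressed, meaning a mean of at least 1 CPM over the 30 libraries. Another 5 (COL9A2, COL4A4, COL11A2, COL6A6 and COL4A3) passed the filter on low counts with a mean under 1 CPM, so 31 members entered the tests. The 13 members that did not pass were COL10A1, COL24A1, COL26A1, COL28A1 and COL19A1, with at most 10 counts in any library, and COL9A3, COL23A1, COL2A1, COL20A1, COL22A1, COL9A1, COL6A5 and COL25A1, with at most 3. These 13 were taken as not expressed at this depth, although COL24A1 had counts in all 30 libraries and COL10A1 in 29. They include COL2A1 and COL9A1, chains of cartilage fibrils, and COL10A1, a marker of the growth plate.

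By type, 8 of 11 fibrillar genes were expressed, COL11A2 was low, and COL24A1 and COL2A1 were not expressed. Among the basement membrane genes 7 of 9 were expressed, and the type IV pair COL4A3 and COL4A4, which belongs to kidney and other specialised membranes, was low. The 24 other genes gave 11 expressed, 2 low and 11 not expressed, and all 3 classic type VI chains were among the expressed while COL6A5 and COL6A6 were not.

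Levels were compared between genes as CPM per kb of each gene's longest annotated transcript, a scale that depends on the annotated length. COL1A1, the pro-alpha1 chain of type I collagen, had the highest mean level, 527 CPM per kb, with libraries from 460.0 to 634. The type VI chains COL6A1 and COL6A2, which form beaded filaments close to cells, followed at 418 and 313 CPM per kb, and COL1A2, the partner chain of type I, stood at 307. COL5A1, the main chain of the type V collagen that nucleates fibrils, had 231 CPM per kb.

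Below these came COL4A2 at 104, COL4A1 at 54.9, COL5A2 at 52.0, COL12A1 at 46.6 and COL8A1 at 24.2 CPM per kb. The ranges of COL4A1, from 51.4 to 60.5, and of COL5A2, from 48.5 to 54.4, overlapped. So did those of COL1A1 and COL6A1, of COL6A2 and COL1A2, of COL1A2 and COL5A1, and of COL5A2 and COL12A1. Both genes of a pair were measured in the same libraries, and their order within each library was not tested. COL3A1, the type III chain that accompanies type I in soft tissue, was low beside it at 5.87 CPM per kb. The lowest expressed members were COL5A3 at 0.481 and COL17A1 at 0.461 CPM per kb.

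**Figure D1:**
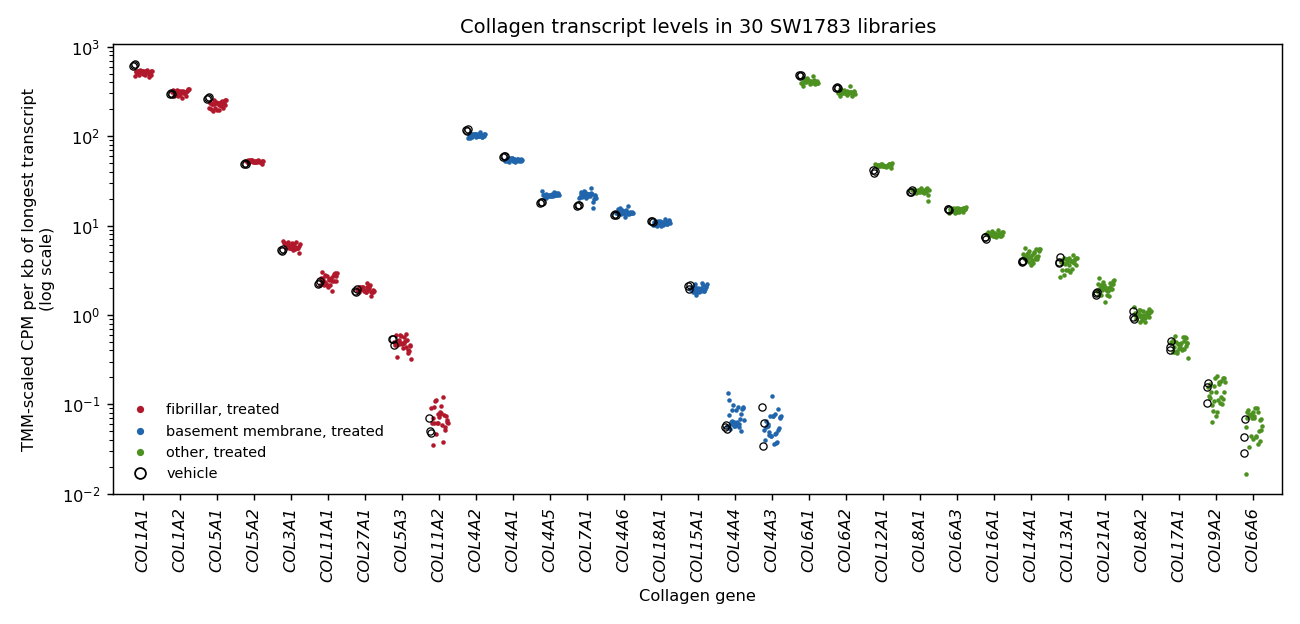
TMM-scaled CPM per kb of the longest transcript (log scale) for the 26 expressed and 5 low collagen genes, 1 point per library; filled points are treated libraries coloured by class and open circles are the 3 vehicle libraries. COL1A1, COL6A1, COL6A2, COL1A2 and COL5A1 sit above the rest, and the 5 low genes form a separate bottom tier.

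All collagen genes together took 1.21% to 1.45% of the scaled counts of a library. The 5 genes COL1A1, COL5A1, COL1A2, COL6A1 and COL6A2 supplied 76.4% to 80.0% of that sum. Fibrillar genes made up 56.4% to 61.3% of collagen CPM, basement membrane genes 11.1% to 12.4% and other genes 27.1% to 31.2%. The summed level was 14362 ± 163 CPM in vehicle (SD, n = 3), 13195 ± 157 with Palmul-tang at 20 µg/mL and 12681 ± 385 at 500 µg/mL. With Sibjeondaebo-tang it was 13314 ± 472 at 20 µg/mL and 12816 ± 799 at 500 µg/mL, where replicates 1 to 3 read 12307, 12404 and 13737 CPM.

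The labelled glial origin was set against marker genes. GFAP, S100B, AQP4, ALDH1L1 and FABP7, which define mature astrocytes or radial glia, had at most 4 counts in any library, while the less specific VIM (mean 5035 CPM), CD44 (2811 CPM), GJA1 (249 CPM), SOX9 (67.6 CPM), SLC1A3 and NES were present. All 10 fibroblast or mesenchymal markers were above 1 CPM, among them THY1 at 443 CPM and LUM at 30.3 CPM. The summed level of those 10 markers was 865 to 886 CPM in vehicle, 798 to 843 with Palmul-tang at 20 µg/mL and 750 to 801 at 500 µg/mL, and with Sibjeondaebo-tang 789 to 853 and 770 to 791. Summed neuron markers read 164 to 173 CPM in vehicle, 153 to 158 and 128 to 135 with Palmul-tang at 20 and 500 µg/mL, and 154 to 159 and 134 to 144 with Sibjeondaebo-tang. Summed astrocyte or glial markers read 8710 to 8978 CPM in vehicle, 7945 to 8129.9 and 8111 to 8319.9 with Palmul-tang, and 8001 to 8070.2 and 8338 to 8525 with Sibjeondaebo-tang. Most of this sum came from the less specific VIM and CD44, and most of the fibroblast or mesenchymal sum from THY1. Endothelial markers summed to 30.4 to 34.2 CPM in vehicle and to 37.0 to 41.3 and 38.2 to 41.1 at 500 µg/mL of the 2 formulas. The part of these markers in the collagen differences below was not tested. Means of at least 1 CPM were found for 0 of 4 epithelial, 2 of 5 endothelial, 3 of 5 leukocyte and 3 of 4 neuron markers, and CDH5 and VWF, defining genes of endothelium, had at most 6 counts in a library, while KDR had a mean of 34.2 CPM and TEK of 1.36 CPM.

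The comparison of 500 with 20 µg/mL asks how collagen transcripts depended on dose within each formula. With Palmul-tang, 6 of 31 tested collagen genes fell and 2 rose at an adjusted p under 0.05 in edgeR's quasi-likelihood test, fitted over all 17839 tested genes; 2.47% of all tested genes fell and 2.83% rose. Sibjeondaebo-tang gave 7 collagen genes that fell and 1 that rose, where 2.79% of all tested genes fell and 3.45% rose. COL13A1, COL14A1, COL11A1, COL5A1 and COL1A2 fell with both formulas, and COL4A6 rose with both. Counted over genes with a mean of at least 1 CPM, 7 of 26 collagen genes were called with Palmul-tang against 6.58% of 13850 genes, and 8 of 26 with Sibjeondaebo-tang against 7.75%.

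The median log2 change of the 31 tested collagen genes was −0.00 with Palmul-tang and −0.04 with Sibjeondaebo-tang, beside −0.00 and 0.00 over all tested genes. In each formula 8 of 31 passed and 23 did not, and the called changes in size ran from 8.01% to 30.2% among the expressed members. Without the third Sibjeondaebo-tang library at 500 µg/mL, 9 collagen genes fell and 1 rose, where 564 of all tested genes fell and 599 rose. Each of the 8 named calls of that comparison stayed past the threshold.

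**Figure D2:**
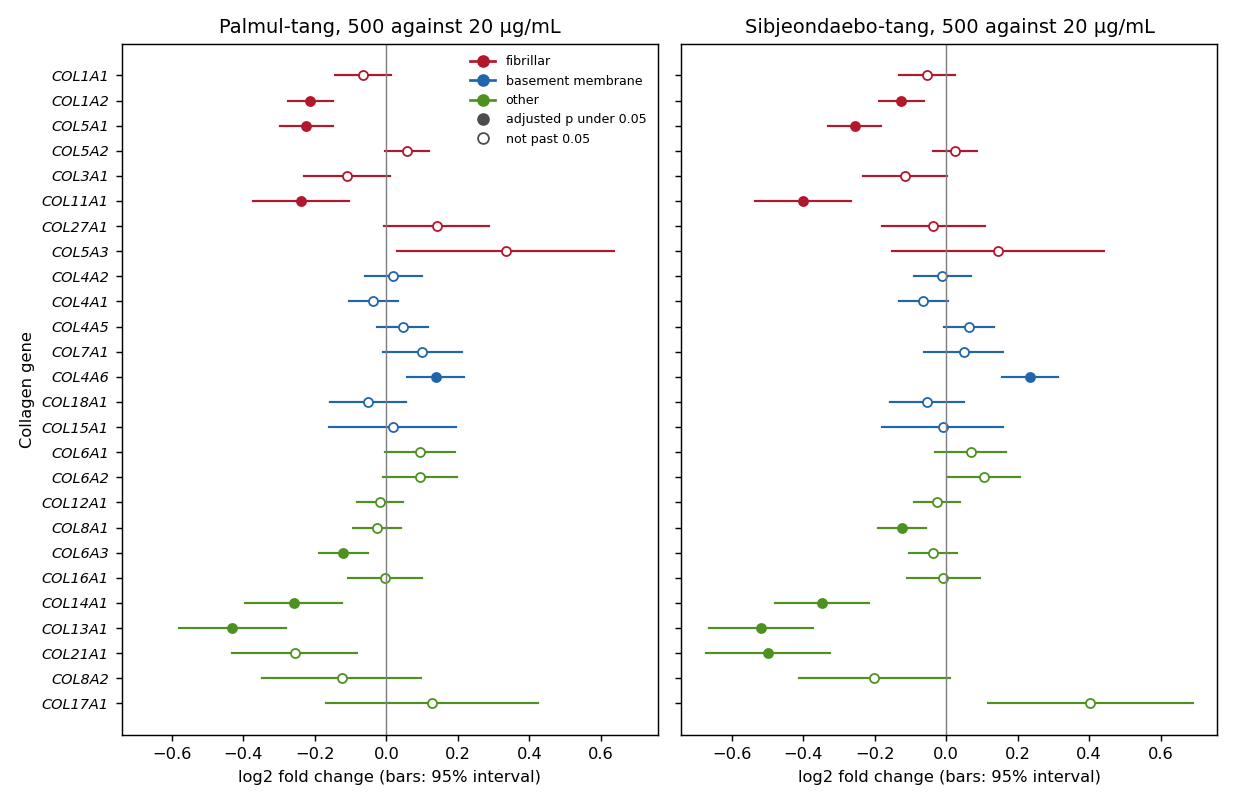
log2 fold change at 500 against 20 µg/mL for the 26 expressed collagen genes with Palmul-tang (left) and Sibjeondaebo-tang (right), with 95% intervals; filled points have an adjusted p under 0.05. COL13A1, COL14A1, COL11A1, COL5A1 and COL1A2 lie left of 0 in both panels and COL4A6 lies right of 0.

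Among fibrillar genes, 3 of 9 tested fell with each formula and none rose. COL5A1 read 1952, 2034 and 1985 CPM in the Palmul-tang libraries at 20 µg/mL and 1714, 1736 and 1662 CPM at 500 µg/mL, with no overlap. Its log2 change was −0.22 (SE 0.037), a fall of 14.4% (adjusted p = 5.38e-05, edgeR). With Sibjeondaebo-tang it read 2128, 1976 and 2068 CPM at 20 µg/mL and 1639, 1676 and 1854 CPM at 500 µg/mL. Here too the groups did not overlap, and the log2 change was −0.26 (SE 0.036; adjusted p = 4.8e-06, edgeR).

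COL1A2 read 1917, 1923 and 1920 CPM with Palmul-tang at 20 µg/mL and 1687, 1666 and 1616 CPM at 500 µg/mL. Every 500 µg/mL library lay below every 20 µg/mL library, and the log2 change was −0.21 (SE 0.031; adjusted p = 7.92e-06, edgeR). With Sibjeondaebo-tang COL1A2 went from 1968, 1906 and 1860 CPM to 1725, 1723 and 1805 CPM, a log2 change of −0.13 (SE 0.031; adjusted p = 0.00751, edgeR), again without overlap. This call was lost when the fit held those 2 groups alone, and without the first library at 20 µg/mL, with adjusted p of up to 0.0868 over the alternatives.

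COL11A1, a chain of the type XI collagen that sets fibril diameter, was measured at 19.2, 19.9 and 18.9 CPM with Palmul-tang at 20 µg/mL and 17.3, 16.1 and 15.8 CPM at 500 µg/mL. The groups did not overlap, and the log2 change was −0.24 (SE 0.066; adjusted p = 0.0242, edgeR); leaving out any of 4 single libraries, or using DESeq2, ended that call, with adjusted p of up to 0.12. In Sibjeondaebo-tang libraries it was 20.5, 18.2 and 20.0 CPM at 20 µg/mL and 15.8, 15.0 and 13.6 CPM at 500 µg/mL, a log2 change of −0.40 (SE 0.066; adjusted p = 5.01e-05, edgeR).

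COL1A1, the most abundant collagen transcript, did not pass the test between doses. It read 3600, 3576 and 3473 CPM with Palmul-tang at 20 µg/mL and 3426, 3500 and 3250 CPM at 500 µg/mL, and the ranges overlapped. Its log2 change was −0.07 with a 95% interval from −0.14 to 0.01 (adjusted p = 0.416, edgeR), and with Sibjeondaebo-tang −0.05 from −0.13 to 0.02 (adjusted p = 0.533, edgeR). With Sibjeondaebo-tang COL1A1 read 3726, 3429 and 3532 CPM at 20 µg/mL and 3241, 3321 and 3734 CPM at 500 µg/mL. Replicates 1 and 2 at 500 µg/mL lay below every 20 µg/mL library, while the third lay above them all. COL5A2, the usual partner of COL5A1, had log2 changes of 0.06 and 0.02 and did not pass either (adjusted p = 0.337 and 0.756, edgeR). COL3A1, COL27A1 and COL5A3 were not called in either formula.

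The upstream sequence of COL5A1 is shown because it was the expressed fibrillar gene with the largest difference from vehicle in both formulas at 500 µg/mL. The stretch covers the 250 bases before the RefSeq start site on the plus strand, chr9:134641553-134641802 in GRCh38.p14. Capitals mark GC boxes (GGGCGG, here as the reverse complement CCGCCC).
COL5A1: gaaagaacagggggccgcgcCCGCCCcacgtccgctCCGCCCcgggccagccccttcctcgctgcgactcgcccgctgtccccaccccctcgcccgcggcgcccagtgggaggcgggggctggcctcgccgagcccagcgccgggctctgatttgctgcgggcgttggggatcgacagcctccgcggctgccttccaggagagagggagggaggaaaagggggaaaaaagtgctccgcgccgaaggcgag
Windows of 300 bases around 44 start sites of 32 collagen genes were matched in the RefSeq promoter table. A GC box on either strand was in 24 of these 44 windows and in 45.0% of all 35116 windows of that length, and a match describes letters, not a bound factor.

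Among basement membrane genes, 1 of 9 tested rose with each formula and none fell. COL4A6, a chain of the type IV network found in basement membranes of smooth muscle and epithelia, read 92.3, 93.5 and 90.2 CPM with Palmul-tang at 20 µg/mL and 102.2, 100.0 and 101.5 CPM at 500 µg/mL. The groups did not overlap, and the log2 change was 0.14 (SE 0.039; adjusted p = 0.0298, edgeR), but leaving out any 1 of the 6 libraries ended the call, with adjusted p of up to 0.14. With Sibjeondaebo-tang it read 91.1, 84.1 and 90.4 CPM at 20 µg/mL and 104.8, 97.2 and 110.4 CPM at 500 µg/mL. That log2 change was 0.23 (SE 0.039; adjusted p = 5.95e-05, edgeR), and 0.19 without the third library at 500 µg/mL (adjusted p = 6.15e-04).

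COL4A5, COL4A1, COL4A2, COL7A1, COL15A1 and COL18A1 were not called between the doses in either formula. COL4A5, which shares a trimer with COL4A6, had log2 changes of 0.05 and 0.06 with 95% intervals from −0.03 to 0.12 and −0.01 to 0.13. COL4A1 and COL4A2, the chains of the ubiquitous type IV network, changed by −0.04 and 0.02 with Palmul-tang and by −0.06 and −0.01 with Sibjeondaebo-tang on the log2 scale. For COL18A1, part of the exons is shared with SLC19A1 on the opposite strand, over 1401 bases, and whether counting used strand is not given in the sources used here, so its level of 70.7 CPM is uncertain.

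Type IV genes lie in head-to-head pairs. By RefSeq start sites COL4A1 and COL4A2 begin 127 bases apart on chromosome 13 and COL4A6 and COL4A5 begin 380 bases apart on chromosome X, and the sequences are shown because the members of a pair share this stretch. Capitals mark CCAAT boxes (CCAAT or ATTGG) and GC boxes (GGGCGG or CCGCCC). The first line is the interval between both start sites, chr13:110307158-110307283, read on the plus strand toward COL4A2. The second is chrX:108439588-108439837 on the plus strand, before COL4A5, and the third is chrX:108439459-108439708 on the minus strand, before COL4A6, all in GRCh38.p14.
COL4A1/COL4A2 interval: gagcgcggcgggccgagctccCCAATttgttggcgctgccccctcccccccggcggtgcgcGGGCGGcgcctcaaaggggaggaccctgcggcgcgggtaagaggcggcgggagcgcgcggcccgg
COL4A5: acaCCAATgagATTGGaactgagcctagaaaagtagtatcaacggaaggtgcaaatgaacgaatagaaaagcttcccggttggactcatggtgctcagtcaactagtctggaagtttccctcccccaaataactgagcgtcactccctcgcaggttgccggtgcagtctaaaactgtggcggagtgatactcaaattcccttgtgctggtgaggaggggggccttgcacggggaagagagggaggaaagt
COL4A6: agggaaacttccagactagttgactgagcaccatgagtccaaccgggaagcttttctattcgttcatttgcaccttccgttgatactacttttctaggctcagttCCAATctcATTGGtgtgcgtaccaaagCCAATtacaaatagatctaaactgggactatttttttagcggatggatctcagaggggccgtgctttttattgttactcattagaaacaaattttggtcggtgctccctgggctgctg
The interval of COL4A1 and COL4A2 holds 1 CCAAT box and 1 GC box. The stretches before COL4A5 and COL4A6 overlap and hold CCAAT boxes and no GC box. A second COL4A6 start site lies 1416 bases from that of COL4A5; its window shares no base with the COL4A5 window, and it holds a GC box and a SMAD element, whose letters are given with COL13A1. A CCAAT box was in 14 of 44 collagen windows and in 34.6% of all windows.

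Genes of the other types gave 3 of 13 tested that fell and 1 that rose with Palmul-tang, and 4 that fell and none that rose with Sibjeondaebo-tang. COL13A1, a transmembrane collagen of cell adhesion sites, showed the largest fall among expressed collagen genes in both formulas. It read 14.0, 13.4 and 12.9 CPM with Palmul-tang at 20 µg/mL and 10.1, 10.2 and 9.62 CPM at 500 µg/mL, without overlap. The log2 change was −0.43 (SE 0.074), a fall of 25.9% (adjusted p = 1.05e-04, edgeR).

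With Sibjeondaebo-tang, COL13A1 went from 13.6, 13.7 and 14.7 CPM to 8.85, 10.1 and 10.4 CPM. The 2 doses did not overlap, and the log2 change was −0.52 (SE 0.072), a fall of 30.2% (adjusted p = 2.95e-06, edgeR). Between these doses the 100 µg/mL libraries were intermediate, at 11.8, 11.5 and 12.4 CPM. The 250 bases before its RefSeq start site, chr10:69801656-69801905 on the plus strand in GRCh38.p14, are shown because of this fall, with a TATA box (TATAAA or TTTATA) in capitals.
COL13A1: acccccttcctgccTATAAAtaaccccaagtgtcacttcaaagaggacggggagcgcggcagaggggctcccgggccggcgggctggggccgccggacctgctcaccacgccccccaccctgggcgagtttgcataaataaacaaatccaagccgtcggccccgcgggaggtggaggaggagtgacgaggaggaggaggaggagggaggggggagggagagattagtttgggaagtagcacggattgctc
A TATA box was in 8 of 44 collagen windows and in 11.5% of all windows; the match before COL13A1 begins 236 bases before the start site. The letters CAGACA or TGTCTG, the core of a SMAD element, were in 5 of 44 collagen windows and in 16.9% of all windows.

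COL14A1 and COL21A1 belong to the collagens that attach to the surface of fibrils. COL14A1 read 31.1, 28.5 and 32.5 CPM with Palmul-tang at 20 µg/mL and 27.0, 25.2 and 24.8 CPM at 500 µg/mL. Its log2 change was −0.26 (SE 0.067; adjusted p = 0.0145, edgeR), a call that 4 of 6 single left-out libraries ended, with adjusted p of up to 0.111. With Sibjeondaebo-tang it went from 33.2, 30.3 and 34.9 CPM to 27.1, 23.2 and 27.0 CPM, a log2 change of −0.35 (SE 0.065; adjusted p = 3.7e-04, edgeR). In both formulas the 500 µg/mL libraries lay below the 20 µg/mL libraries and around the vehicle libraries, which read 26.2, 25.2 and 25.8 CPM.

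COL21A1 with Sibjeondaebo-tang read 10.2, 8.63 and 9.95 CPM at 20 µg/mL and 7.22, 6.05 and 7.04 CPM at 500 µg/mL. The groups did not overlap, and the log2 change was −0.50 (SE 0.086; adjusted p = 9.48e-05, edgeR). With Palmul-tang the change was −0.26 with a 95% interval from −0.43 to −0.08, which did not pass the test (adjusted p = 0.0831, edgeR).

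COL8A1, a short-chain network collagen of vessel walls, passed with Sibjeondaebo-tang at −0.12 (SE 0.033; adjusted p = 0.0164, edgeR), where it went from 143.4, 148.1 and 142.6 CPM to 132.6, 134.9 and 130.9 CPM. That call was lost in 3 of 11 alternatives, with adjusted p of up to 0.13. COL6A3, the largest type VI chain, passed with Palmul-tang at −0.12 (SE 0.033; adjusted p = 0.0247, edgeR), from 167.5, 165.4 and 163.7 CPM to 155.1, 150.0 and 151.8 CPM. The groups did not overlap, but 5 of 6 single left-out libraries ended the call, with adjusted p of up to 0.126. COL6A1 and COL6A2 were not called between the doses, with log2 changes of 0.09 and 0.09 with Palmul-tang and 0.07 and 0.10 with Sibjeondaebo-tang.

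The low gene COL6A6 was called higher with Palmul-tang at a log2 change of 1.11 (SE 0.33; adjusted p = 0.0398, edgeR). It rested on 9, 11 and 11 counts at 20 µg/mL and 21, 19 and 27 counts at 500 µg/mL, and leaving out any 1 library ended the call, with adjusted p of up to 0.157.

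Between 100 and 20 µg/mL no collagen gene passed edgeR's test in either formula, while 0.163% of all tested genes did with Palmul-tang and 0.207% with Sibjeondaebo-tang. At an unadjusted p under 0.05 there were 3 collagen genes with Palmul-tang and 4 with Sibjeondaebo-tang (edgeR). Of all 17839 tested genes, 779 and 963 reached that value. DESeq2 was not run on these comparisons. The largest log2 change among expressed members was 0.27 in size with Palmul-tang and 0.29 with Sibjeondaebo-tang.

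The formulas were compared with each other at matched doses in 3 tests, and their 500 against 20 µg/mL changes in 1 more. In each of these edgeR fits 0 collagen genes and 0% of all tested genes passed. At 500, 100 and 20 µg/mL, 2, 0 and 1 collagen genes had an unadjusted p under 0.05, with 1 for the difference of changes. Over all 17839 tested genes the corresponding numbers were 863, 478, 629 and 716. The log2 differences between formulas reached at most 0.19 among expressed members, and the farthest 95% interval bound of an expressed member was 0.47 at 500 µg/mL and 0.69 for the difference of changes. These intervals do not show that the formulas act alike.

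Against vehicle, all comparisons share the same 3 vehicle libraries, and each one also crosses the code sets. TMM factors were 0.960 to 0.971 in vehicle and 0.991 to 1.017 in treated libraries, so scaling raised vehicle CPM relative to treated CPM. Statements below on libraries outside the vehicle range rest on scaled CPM and were not tested on unscaled totals. With Palmul-tang at 500 µg/mL 8 collagen genes were lower and 5 higher, where 14.9% of all tested genes were lower and 12.9% higher. Sibjeondaebo-tang at 500 µg/mL gave 6 lower and 6 higher, where 13.3% and 11.7% of all tested genes were called. Over genes with a mean of at least 1 CPM these are 13 of 26 collagen genes against 34.6% of genes and 12 of 26 against 31.3%. The median log2 difference of the 31 tested members was −0.01 and −0.03, beside 0.00 and 0.00 over all tested genes, so the collagen genes were split in direction.

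COL1A1 read 4093, 4179 and 4264 CPM in vehicle, above every treated library, the highest of which read 3734 CPM. The difference at 500 µg/mL was −0.30 (SE 0.038) with Palmul-tang and −0.28 (SE 0.038) with Sibjeondaebo-tang on the log2 scale (adjusted p = 2.99e-07 and 9.21e-07, edgeR). At 20 µg/mL it was already −0.24 and −0.23. COL5A1 read 2232, 2237 and 2337 CPM in vehicle, also above all treated libraries, and differed at 500 µg/mL by −0.41 (SE 0.037) and −0.40 (SE 0.037; adjusted p = 1.25e-10 and 2.99e-10, edgeR). For COL5A1 the distance from vehicle grew with dose, from −0.19 and −0.14 at 20 µg/mL.

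COL4A1, COL4A2 and COL6A1 were likewise lower in all 27 treated libraries than in any vehicle library on TMM-scaled CPM. COL4A2 read 753, 747 and 777 CPM in vehicle and at most 723 CPM in treated libraries, and COL4A1 read 388, 400.3 and 397 CPM against at most 378. COL6A1 read 2072, 2010 and 2058 CPM in vehicle and at most 1997 CPM after treatment. Its differences at 500 µg/mL, −0.14 and −0.16 on the log2 scale (adjusted p = 0.0269 and 0.0155, edgeR), were lost in 3 and in 2 of 6 single left-out libraries.

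COL7A1, the anchoring fibril chain that ties the basement membrane to the tissue beneath, showed the largest rise over vehicle among expressed collagen genes at 500 µg/mL of the 2 replicated formulas. It read 152.0, 158 and 159 CPM in vehicle, 222, 218 and 212 CPM with Palmul-tang at 500 µg/mL and 205, 207 and 241 CPM with Sibjeondaebo-tang at that dose. These groups did not overlap, and the log2 differences were 0.47 (SE 0.054) and 0.48 (SE 0.054), rises of 39.0% and 39.5% (adjusted p = 5.88e-07 and 5.39e-07, edgeR). Without the third Sibjeondaebo-tang library the second value was 0.40 (adjusted p = 2.25e-08). At 20 µg/mL COL7A1 was already higher, by 0.37 and 0.43, while its change between 20 and 500 µg/mL did not pass (adjusted p = 0.366 and 0.726).

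COL4A5 read 115, 118 and 120 CPM in vehicle and at least 131 CPM in all 27 treated libraries. Its differences at 500 µg/mL were 0.27 (SE 0.036) and 0.32 (SE 0.035; adjusted p = 5.08e-07 and 1.67e-08, edgeR). COL12A1, a fibril-associated collagen of tissues under tension, read 484, 454 and 476 CPM in vehicle and at least 516 CPM after treatment, with differences of 0.21 and 0.22 (adjusted p = 5.46e-06 and 3.69e-06, edgeR). COL16A1 was the third gene above the vehicle range in every treated library, but its log2 differences were small, 0.16 for Sibjeondaebo-tang at 500 µg/mL (adjusted p = 0.0196, edgeR), and that call was lost in 2 of 6 single left-out libraries (0.10, adjusted p = 0.142, without the third library of that group).

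In all, 3 of 26 expressed collagen genes lay above the vehicle range in all 27 treated libraries and 5 lay below it; the corresponding shares of the 13850 genes with a mean of at least 1 CPM were 6.801% and 9.52%. COL5A2 and COL4A6 completed the genes higher at 500 µg/mL in both formulas, with log2 differences of 0.11 and 0.11 for COL5A2 and 0.18 and 0.22 for COL4A6. COL13A1 completed the lower ones at −0.38 and −0.41, and its levels at 20 µg/mL, 12.9 to 14.0 and 13.6 to 14.7 CPM, were not called against the 12.2, 12.6 and 14.1 CPM of vehicle. With Palmul-tang alone COL1A2 and COL6A3 were also called lower, at −0.11 and −0.10. The COL6A3 call was lost in 4 of 6 single left-out libraries and without the filter on low counts, with adjusted p of up to 0.101 (edgeR). With Sibjeondaebo-tang at 500 µg/mL COL6A3 read 154.4, 152.6 and 163.4 CPM, against 164.6, 163.9 and 160.4 CPM in vehicle. Only the third of those Sibjeondaebo-tang libraries lay within the vehicle range.

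COL1A2 lay on both sides of vehicle, depending on dose. In vehicle it read 1752, 1804 and 1790 CPM. At 20 µg/mL it was higher with both formulas, by 0.11 and 0.10 on the log2 scale (adjusted p = 0.00973 and 0.0147, edgeR), while at 500 µg/mL of Palmul-tang its difference was −0.11 (adjusted p = 0.00942, edgeR; −0.09 and 0.069 without the third library) and with Sibjeondaebo-tang −0.03, which did not pass (adjusted p = 0.606). COL11A1, COL14A1 and COL21A1 were also higher than vehicle at 20 µg/mL of both formulas, by 0.21 and 0.22, by 0.25 and 0.35, and by 0.27 and 0.34, and none of the 3 was called against vehicle at 500 µg/mL.

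Counts at the lower doses were of similar size. At 20 µg/mL 9 collagen genes were higher and 6 lower with Palmul-tang and 10 higher and 6 lower with Sibjeondaebo-tang, with 23.8% of all tested genes called in each comparison. The 100 µg/mL comparisons gave 4 higher and 6 lower with Palmul-tang, against 23% of all tested genes, and 6 higher and 6 lower with Sibjeondaebo-tang, against 24.6%. COL6A2 was lower than vehicle at 20 and 100 µg/mL of both formulas (−0.19 and −0.19 at 20 µg/mL) and was not called at 500 µg/mL. It lay below the vehicle range in 26 of 27 treated libraries, all but the third Sibjeondaebo-tang library at 500 µg/mL, which read 1268 CPM where replicates 1 and 2 read 1059 CPM each.

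**Figure D3:**
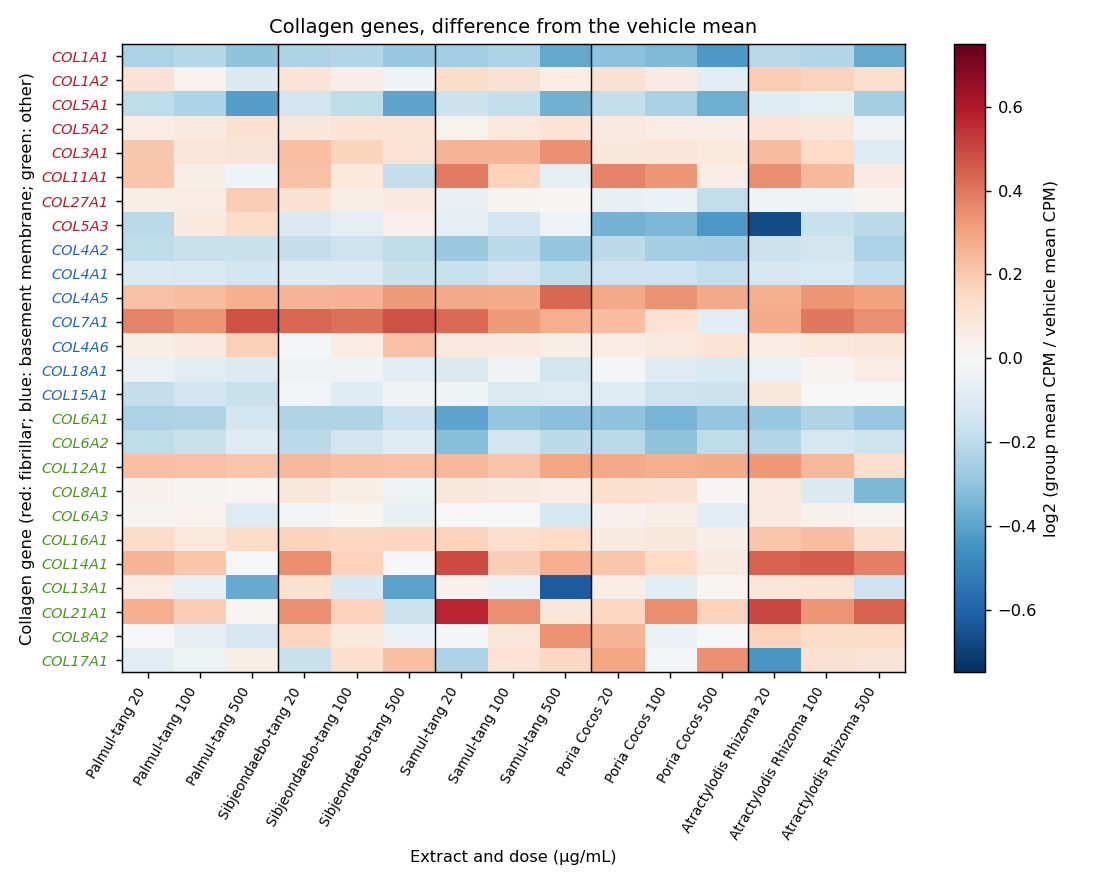
log2 ratio of the group mean CPM to the vehicle mean CPM for the 26 expressed collagen genes (vertical, coloured by class) in 15 treated groups (horizontal, 3 replicated libraries for Palmul-tang and Sibjeondaebo-tang, 1 library elsewhere). COL1A1, COL5A1, COL4A1, COL4A2 and COL6A1 are blue and COL4A5, COL12A1 and COL16A1 red in every column, while COL1A2, COL11A1 and COL13A1 change with dose.

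The 3 extracts with 1 library per dose have no spread of their own. Their mean over doses was tested against vehicle with the spread of the replicated groups, assuming that single libraries vary like those. Samul-tang gave 9 collagen genes higher and 7 lower against 27.7% of all tested genes called, Poria Cocos 3 and 6 against 27.3%, and Atractylodis Rhizoma 8 and 7 against 27.7%. COL1A1, COL4A1, COL4A2, COL5A1, COL6A1 and COL6A2 were lower and COL4A5 and COL12A1 higher in each of these extracts. The 9 of Samul-tang include the low gene COL4A4 (0.76, SE 0.27; adjusted p = 0.0339, edgeR), whose libraries overlapped vehicle.

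COL1A1 with Samul-tang read 3503, 3563 and 3198 CPM at 20, 100 and 500 µg/mL, with Poria Cocos 3383, 3316 and 3094 CPM and with Atractylodis Rhizoma 3613, 3582 and 3215 CPM. Each series was lowest at 500 µg/mL. COL13A1 read 13.2, 12.6 and 8.40 CPM with Samul-tang, 13.4, 12.2 and 13.05 CPM with Poria Cocos and 13.8, 13.9 and 11.6 CPM with Atractylodis Rhizoma. COL7A1 fell in order with Poria Cocos, at 183, 168 and 147 CPM, and COL8A1 with Atractylodis Rhizoma, at 143.6, 127 and 108 CPM.

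At 500 µg/mL 16 of 26 expressed collagen genes were lower than at 20 µg/mL with Samul-tang, 21 with Poria Cocos and 18 with Atractylodis Rhizoma. The median log2 ratios were −0.03, −0.07 and −0.06. Shares and medians over all genes were not computed for these ratios of single libraries, so the counts cannot be read as particular to collagen genes. When the 3 libraries at 500 µg/mL were set against the 3 at 20 µg/mL across these extracts, 6 of 31 tested collagen genes fell and none rose, where 2.79% of all tested genes were called in either direction. The genes that fell were COL11A1 (−0.35), COL13A1 (−0.31), COL8A1 (−0.19), COL5A1 (−0.18), COL1A1 (−0.14) and COL1A2 (−0.11), with adjusted p from 6.32e-04 to 0.0346 (edgeR); the libraries of COL1A2 overlapped. This comparison mixes 3 different extracts and was chosen after the values had been seen.

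Poria Cocos and Atractylodis Rhizoma, both ethanol extracts, were compared over their 3 matched doses. COL8A1 was higher with Poria Cocos by 0.21 (SE 0.033; adjusted p = 2.69e-04, edgeR), and COL1A2, COL7A1 and COL14A1 were lower by −0.14, −0.26 and −0.28 (adjusted p = 0.0146, 0.0146 and 0.0164). The libraries of COL8A1 overlapped because Atractylodis Rhizoma at 20 µg/mL read 143.6 CPM, within the Poria Cocos range of 137 to 148 CPM. Over all tested genes 1.42% were called in this comparison.

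**Figure D4:**
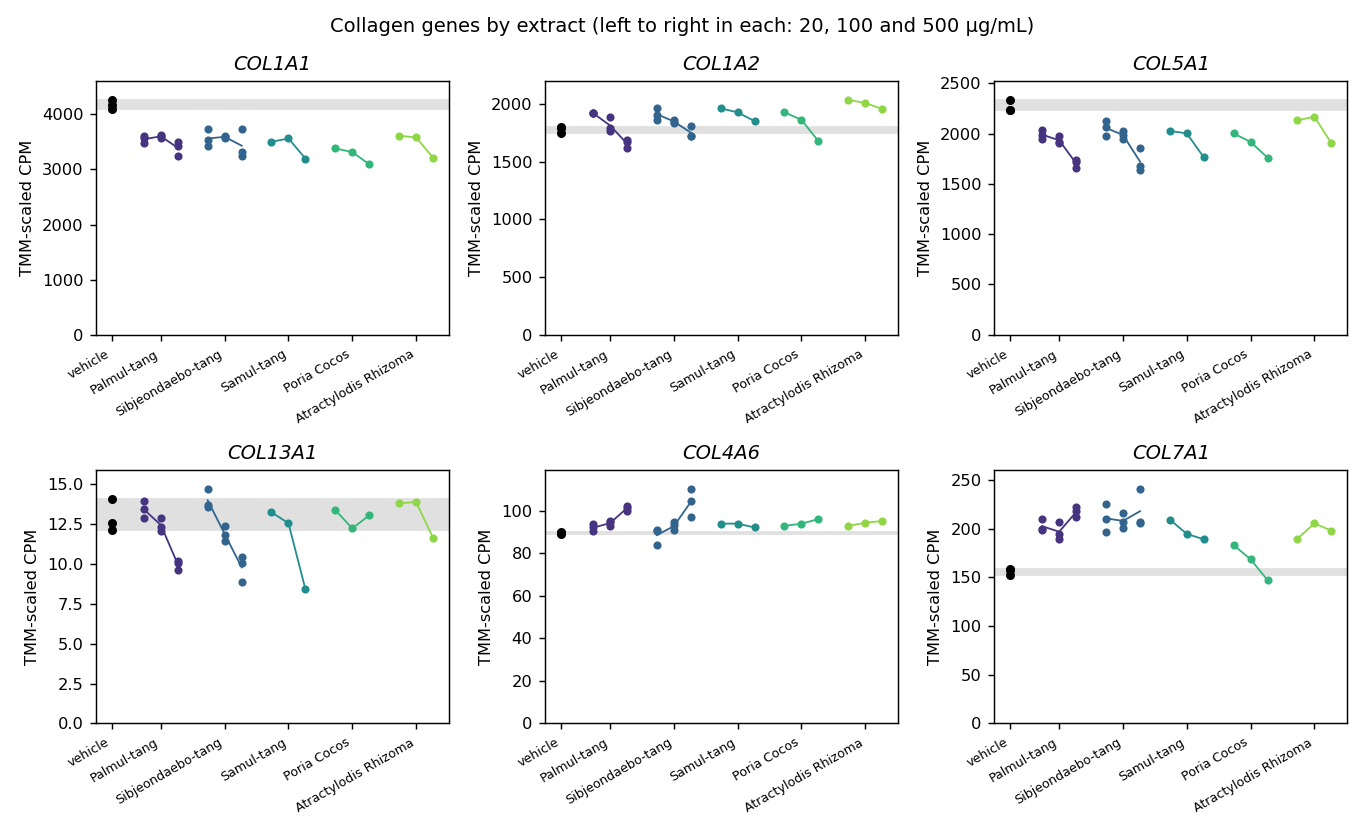
TMM-scaled CPM of 6 collagen genes in every library, with vehicle at the left, its range as a grey band, and the 3 doses of each extract from left to right; lines join group means. COL1A1 and COL5A1 lie below the vehicle band in all treated libraries, COL1A2 and COL13A1 fall at 500 µg/mL in both replicated formulas, and COL7A1 returns into or under the vehicle band at 500 µg/mL of Poria Cocos (147 CPM).

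Ratios between chains that share a trimer were computed in each library from CPM per kb. The ratio of COL1A1 to COL1A2, whose protein chains stand at 2 to 1 in type I collagen, was 2.08, 2.06 and 2.12 in the vehicle libraries, with a mean of 2.09 ± 0.030 (SD, n = 3). It was lower in every treated library, with group means of 1.65 ± 0.032 and 1.82 ± 0.042 for Palmul-tang at 20 and 500 µg/mL and 1.66 ± 0.050 and 1.74 ± 0.088 for Sibjeondaebo-tang (SD, n = 3 each). The value of 2.09 depends on the annotated lengths and is 2.66 with the union of all exons, while the order of libraries does not.

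COL5A1 over COL5A2 stood at 5.42 ± 0.23 in vehicle, at 4.58 ± 0.044 and 3.76 ± 0.023 with Palmul-tang at 20 and 500 µg/mL, and at 4.63 ± 0.081 and 3.81 ± 0.23 with Sibjeondaebo-tang (SD, n = 3 each). The libraries at 500 µg/mL lay below those at 20 µg/mL in both formulas. COL4A1 over COL4A2 ran from 0.491 to 0.557 over all 30 libraries. It was 0.511 ± 0.013 in vehicle, 0.540 ± 0.00082 and 0.520 ± 0.0087 with Palmul-tang at 20 and 500 µg/mL, and 0.539 ± 0.016 and 0.520 ± 0.027 with Sibjeondaebo-tang (SD, n = 3 each). The Palmul-tang libraries at 20 µg/mL, from 0.539 to 0.541, lay above the vehicle libraries, from 0.501 to 0.526. For the head-to-head pair on chromosome X, COL4A5 over COL4A6 was 1.37 ± 0.023 in vehicle, 1.55 ± 0.066 and 1.45 ± 0.022 with Palmul-tang at 20 and 500 µg/mL, and 1.65 ± 0.072 and 1.47 ± 0.049 with Sibjeondaebo-tang (SD, n = 3 each). COL6A1 over COL6A2 ran from 1.253 to 1.422.

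**Figure D5:**
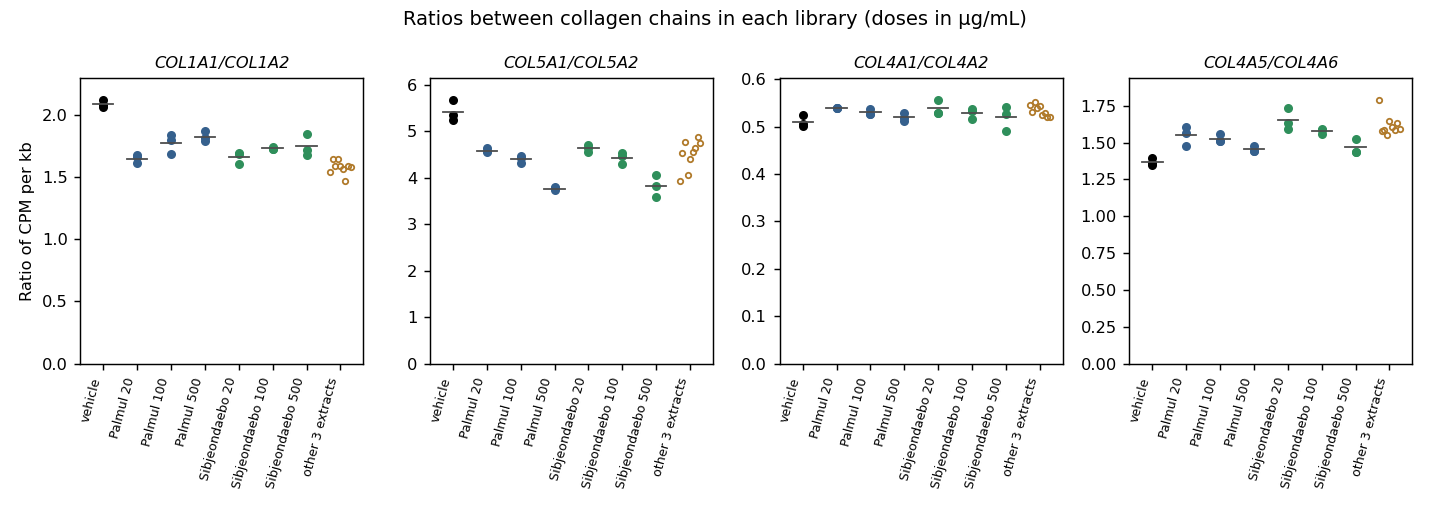
Ratio of CPM per kb between 4 pairs of collagen chains in each library, by group, with group means as bars and the 9 libraries of Samul-tang, Poria Cocos and Atractylodis Rhizoma at the right. COL1A1/COL1A2 and COL5A1/COL5A2 are highest in vehicle (2.09 and 5.42 on average), and COL4A1/COL4A2 lies between 0.491 and 0.557.

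Genes that make, process, bind or degrade collagen were taken from lists drawn up by function. For every list count between doses, the shares over all tested genes were 2.47% lower and 2.83% higher with Palmul-tang and 2.79% lower and 3.45% higher with Sibjeondaebo-tang. Of 29 genes for hydroxylation, folding and export of procollagen, 2 fell and none rose between 20 and 500 µg/mL of Palmul-tang, and 2 fell and 1 rose with Sibjeondaebo-tang. P4HA1, a catalytic subunit of prolyl 4-hydroxylase, fell by 0.25 and 0.19 on the log2 scale (adjusted p = 3.77e-06 and 2.81e-04, edgeR). SERPINH1, the collagen-specific chaperone HSP47, fell by 0.17 and 0.14 (adjusted p = 0.00244 and 0.0147, edgeR), and the lysyl hydroxylase gene PLOD2 was not called between doses. Against vehicle at 500 µg/mL, 12 of the 29 were lower and 2 higher with Palmul-tang, where 14.9% and 12.9% of all tested genes were called, and 8 and 2 with Sibjeondaebo-tang, where 13.3% and 11.7% were, with SERPINH1 lower by −0.35 and −0.32. PLOD2 went the other way against vehicle, higher by 0.21 and 0.20 (adjusted p = 1.12e-05 and 1.64e-05, edgeR).

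Of 18 processing and crosslinking genes 15 were tested. Between doses 1 rose with Palmul-tang (TGM2, 0.14) and 2 fell with Sibjeondaebo-tang (ADAMTS14, −0.32, and ADAMTS2, −0.15, both procollagen N-proteinases). Against vehicle 8 were lower and none higher with Palmul-tang (14.9% and 12.9% of all tested genes) and 7 lower and 1 higher with Sibjeondaebo-tang (13.3% and 11.7%), while the crosslinking enzyme LOX was called in none of these 4 comparisons. Among 12 tested receptor and uptake genes, 3 fell and 1 rose between doses in each formula; DDR1, ITGA11 and ADGRG1, each a receptor for collagen, fell with both, by 0.21, 0.17 and 0.13 with Palmul-tang. Against vehicle, with those same shares over all tested genes, these 12 gave 5 higher and 5 lower in each formula.

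Among 7 tested collagenase and gelatinase genes, 2 rose and 1 fell between doses of Palmul-tang and 3 rose and none fell with Sibjeondaebo-tang. MMP1, the interstitial collagenase, went from 58.7 ± 0.66 to 78.6 ± 3.64 CPM with Palmul-tang and from 57.5 ± 0.83 to 79.0 ± 1.498 CPM with Sibjeondaebo-tang (SD, n = 3 each). These are log2 changes of 0.42 and 0.46. MMP14, a membrane-bound collagenase, rose by 0.16 and 0.26, and MMP2, a gelatinase, fell with Palmul-tang by 0.12 on that scale.

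Of 20 tested genes for collagen-binding matrix proteins, 3 fell and 1 rose with Palmul-tang and 4 fell and 1 rose with Sibjeondaebo-tang. THBS2 and TGFBI fell with both formulas (−0.31 and −0.31, −0.19 and −0.17), and THBS1 rose (0.18 and 0.26). SPARC, a collagen-binding matricellular protein, was not called between doses. Against vehicle at 500 µg/mL it was lower, by −0.21 and −0.20 (adjusted p = 2.97e-06 and 5.55e-06, edgeR). In that comparison 8 of these 20 genes were lower and 2 higher with Palmul-tang, where 14.9% and 12.9% of all tested genes were called. With Sibjeondaebo-tang 7 were lower and 2 higher, where 13.3% and 11.7% were. The 17 tested genes for other basement membrane proteins gave 2 that rose and 1 that fell between doses of Palmul-tang and 2 that rose with Sibjeondaebo-tang. LAMB3, which encodes a laminin chain, rose with both, by 0.40 and 0.57 on the log2 scale (adjusted p = 0.0214 and 2.63e-04, edgeR).

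Of 19 tested genes of the TGF-beta signal and its early targets, a pathway known to raise collagen transcription in mesenchymal cells, 3 rose and 3 fell with Palmul-tang and 3 rose and 5 fell with Sibjeondaebo-tang. SMAD7, which encodes an inhibitory SMAD, fell by 0.36 and 0.39 on the log2 scale (adjusted p = 0.00433 and 8.05e-04, edgeR). TGFB1 read 526 ± 6.85 CPM in vehicle, 424 ± 15.6 and 403 ± 16.5 with Palmul-tang at 20 and 500 µg/mL, and 446 ± 32.4 and 402 ± 15.9 with Sibjeondaebo-tang (SD, n = 3 each). Between doses it passed the test with Sibjeondaebo-tang alone (−0.15; adjusted p = 0.0228, edgeR), and the difference between the formulas was not called. TGFBR2, the type II receptor gene, was not called in any of the 4 comparisons.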

How the data were processed

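The authors deposited estimated counts per gene for this cell line as 1 table of 279 columns; 30 columns matched the samples and 249 were left out. Per the submitters' processing notes, FastQC 0.11.9, Trim Galore 0.6.5, STAR 2.7.3a and RSEM 1.3.3 were used with GRCh38, and the labels' protocols name a directional paired-end library kit. Expected counts, of which 24% of the non-zero values were not whole, were rounded here. Totals of 22.57 M to 37.82 M set the precision. Gene types, positions and transcript lengths came from GENCODE 29 (57055 gene IDs matched); the annotation release and strand setting behind the counts are not given in the sources used here.

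The main test was edgeR 4.0.16 (R 4.3.3): TMM scaling, filterByExpr, 1 mean per group over all 30 libraries, robust quasi-likelihood, Benjamini-Hochberg adjustment over 17839 genes at 0.05. A filter on low counts was passed by 31 of 44 members. Alternatives were DESeq2 size factors, the DESeq2 1.42.0 Wald test, no filter, only the compared groups, a replicate block, and leaving out single libraries. The code was tested on simulated data. Values are given for the 10 collagen genes highest per kb and for each expressed member called at 500 µg/mL; from the function lists, up to 3 called genes by smallest p plus 8 fixed genes could be named. Members and lists were chosen with earlier results of these data known. Chosen after the values were seen were the 500 against 20 µg/mL contrast over single-library extracts, the background of genes with at least 1 CPM, and the exon-union lengths. Promoter sequences are from RefSeq (GRCh38.p14).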

Additional observations from a re-analysis of the deposited data

How the results depend on the processing

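Over 41 single-gene results and 450 alternative settings, none changed direction, 406 stayed on their side of the threshold and 44 lost the call. Collagen genes that rose at 500 against 20 µg/mL of Palmul-tang numbered 2, but 1 with DESeq2, 4 in a fit restricted to both groups compared, and 0 (lowest and highest) when any library was left out. Those that fell numbered 6, and 3 to 6 with a library left out; 3 remained called without the first library at 20 µg/mL, and 3 without replicate 3 at 500 µg/mL. COL5A1, COL1A2 and COL13A1 stayed called in each of these settings. Against vehicle, Palmul-tang at 500 µg/mL gave 5 higher, 8 in such a fit and 5 to 6 with a library left out, and 8 lower, 5 to 8 with a library left out, the 5 without replicate 3. For Sibjeondaebo-tang at 500 against 20 µg/mL, 1 rose, and 1 to 2 with a library left out, the 2 without the second library at 500 µg/mL. The cause of these differences was not tested. Fits with a library left out or restricted to the compared groups also held fewer libraries. The remaining collagen counts stayed within 1.5 times. Over all tested genes, 636 rather than 1113 were called between the doses of Sibjeondaebo-tang in such a fit.

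The replicate numbers do not pair the libraries by their labels, and same-numbered libraries correlated from −0.21 to 0.33 (median 0.05). Over 0.1 were 22 of 63 such pairs, and 16 of 21 libraries correlated best with a library of their own number, a hint from the data and not from the design. With a replicate block the counts were 2 higher and 6 lower (Palmul-tang) and 1 and 7 (Sibjeondaebo-tang) between doses, and 6 and 8, and 6 and 6, against vehicle. Exon-union lengths gave chain ratios in vehicle of 2.66 (COL1A1/COL1A2), 0.681 (COL4A1/COL4A2), 1.72 (COL6A1/COL6A2), 46.2 (COL6A1/COL6A3), 1.03 (COL4A5/COL4A6) and 4.32 (COL5A1/COL5A2). Depth limited the 5 low members, with at most 33 counts in a library.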
